A study of Sus scrofa with 8 samples.

Results

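All 8 RNA-seq libraries of the series were compared by altitude, the 4 libraries from pigs kept at 3000 m against the 4 from pigs kept at 100 m, with breed as a second term. The members of the comparison are therefore all 8 of the 8 libraries, and the question was which cardiac genes differed with altitude in the same direction in Tibetan pigs, a breed of the plateau, and in Yorkshire pigs, a commercial lowland breed. A gene was singled out when its 4 libraries of 1 altitude all lay on the same side of the other 4. This is written below as altitudes that did not overlap, and the count of such genes was repeated without the library YL2.

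The groups were Tibetan highland (TH1 and TH2), Yorkshire highland (YH1 and YH2), Tibetan lowland (TL1 and TL2) and Yorkshire lowland (YL1 and YL2) male pigs, with 2 libraries in each. Highland pigs lived at Linzhi in Tibet and lowland pigs at Beijing, all were slaughtered at 6 months of age, and each library was made from heart RNA pooled from 4 pigs. Because each altitude was sampled at a single site, altitude and everything else that differed between the sites cannot be told apart. P-values below describe the spread between pools and not between single pigs.

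When oxygen is scarce, prolyl hydroxylases of the EGLN family stop marking the alpha subunits of the hypoxia-inducible factor (HIF) for destruction, and HIF then switches on genes for glycolysis, vessel growth and red cell production. The heart is also loaded mechanically at altitude, since the pulmonary vessels constrict, and a loaded heart is known to return to a fetal programme with natriuretic peptides, skeletal actin and small heat shock proteins. Heart muscle otherwise lives mainly on fatty acids burned in mitochondria, and it renews its contractile proteins through ribosomes and the proteasome.

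The libraries held from 15687144 to 26721951 reads on genes. Mitochondrially encoded transcripts took from 57.7% to 87.6% of the FPKM (fragments scaled to transcript length and to the number mapped in the library). All 8 libraries held heart transcripts: 9 ventricular cardiomyocyte markers summed to between 13420 FPKM in YL2 and 35980 FPKM in TH1. The 4 Y-linked genes found in the table summed to 12.8 and 14.3 FPKM in YH, 22.7 and 27.5 in YL and 28.8 to 39.8 in the Tibetan libraries, all labelled male. YL2 also stood apart. Its log2 levels correlated with the other libraries at 0.846 to 0.879, against 0.899 to 0.973 among the other 7, and its 26 kidney markers found in the table summed to 11460 FPKM against 5.4 to 22.7 FPKM elsewhere. Liver markers summed to 211.5 FPKM in YL2 against 15.5 to 46.6 elsewhere, and adipocyte markers to 1741 against 124.5 to 219.6, of which PCK1, a gluconeogenic enzyme that the kidney also makes, was 1499. UMOD, made by the renal tubule, was at 947 FPKM in YL2, at 0.81 in TH2 and at 0 in the other 6 libraries. In whole tissue, fewer cells of a type and less RNA per cell cannot be told apart.

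Of 18975 genes in the table, 11709 had at least 1 FPKM in 2 of the 7 libraries other than YL2 and were tested with limma on log2(FPKM + 1). With Benjamini-Hochberg adjustment, 0 genes (0.0%) passed an adjusted p of 0.05, and the smallest adjusted p was 0.773. Without YL2 the smallest limma adjusted p was 0.0691. At an unadjusted limma p under 0.05 there were 697 genes (5.95%), of which 462 (3.95%) were higher and 235 (2.01%) lower at 3000 m, and without YL2 there were 945 (8.07%). Leaving out YL1, 1 gene passed upward, TNNT1, the troponin T of slow muscle (3.01, limma adjusted p = 0.0115), and 3 downward, ENSSSCG00000006806, SNORA4 and EPB49. ENSSSCG00000006806 and SNORA4 had no more than 2 reads in any library. With a term for each group instead of altitude and breed, CHI3L1 (1.93, limma adjusted p = 0.00975) and CRTAC1 (1.47, limma adjusted p = 0.0249) passed upward, beside 4 small RNAs or unnamed genes with 1 or 2 reads per library. CHI3L1 and CRTAC1 reached 1 FPKM in TH1 and TH2 only, so they entered the tested genes through the group in which they were high, and their passing is no independent support. In Tibetan pigs alone CHI3L1 (limma adjusted p = 0.00227) and GLRX (0.0481) passed among 13 genes. No gene below is called in the model of altitude and breed over all 8 libraries, and the values that follow describe these 8 pools.

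The altitudes did not overlap in 316 genes (2.7% of those tested): 194 (1.66%) were higher in every 3000 m library than in every 100 m library and 122 (1.04%) were lower. Without YL2 the count was 673 (5.75%), with 369 higher (3.15%) and 304 lower (2.6%). Of the 194, 11 reached 1 FPKM at 3000 m only, among them CHI3L1, PTX3 and KEAP1, and 6 of the 122 at 100 m only, HERC5 among them, so these passed the filter on low values through the altitude at which they were high. All 316 genes of the first count were among the 673. The other 357 genes were kept out of the first count by YL2 alone. Fewer libraries make the rule easier to meet, and the count was largest without YH1 (653 higher and 277 lower), TH1 (550 and 407) and YL1 (477 and 418). It was 293 and 190 without TL2, 266 and 170 without TH2, 259 and 186 without TL1 and 249 and 227 without YH2.

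**Figure D1:**
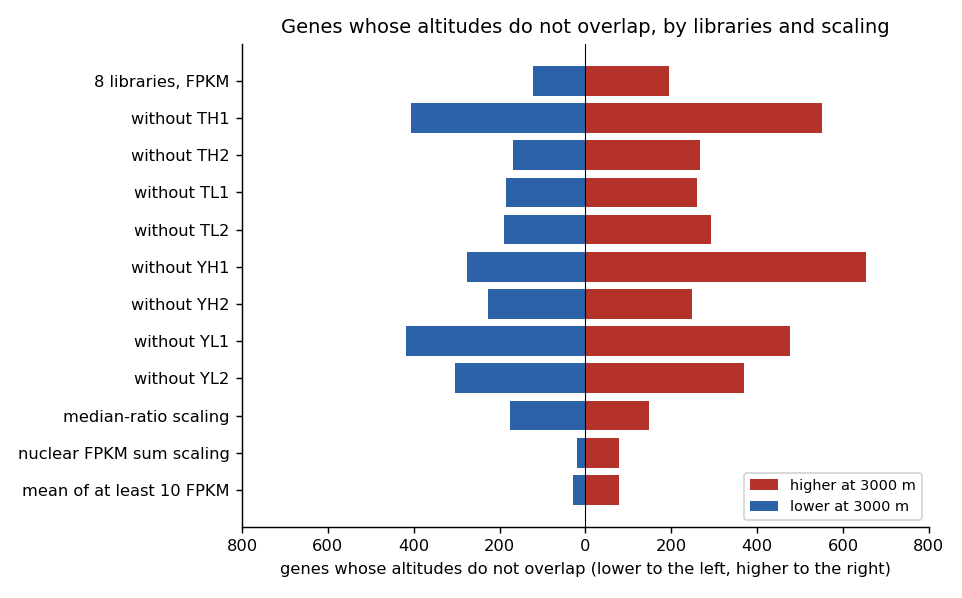
Number of genes whose altitudes did not overlap (x axis, genes), higher at 3000 m to the right in red and lower at 3000 m to the left in blue, for all 8 libraries, with each library left out, and under other scalings or filters of the FPKM values. With all 8 libraries 194 genes lay higher and 122 lower, and without YH1 653 lay higher.

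The separation was narrow for most of these genes. The median gap between the nearest libraries of the 2 altitudes was 0.07 on the log2(FPKM + 1) scale, and the widest was 1.22, in DDC. Just inside the rule stood ARRDC3, with a gap of 2.3e-06, and just outside it NEIL2, whose altitudes overlapped by 2.4e-05. The 194 higher genes had a median difference of 0.48 on the log2(FPKM + 1) scale, with 0.49 in Tibetan and 0.40 in Yorkshire pigs, and 18 of them exceeded 1. The 122 lower genes had a median of −0.50, with −0.45 in each breed, and 11 exceeded 1 in size. YL2 stood out among the lower genes: it was over 2 times every other library in 20 of the 122, and without it their Yorkshire median was −0.25.

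How the libraries were scaled decided which direction prevailed. Of the non-overlapping genes, 61.4% were higher at 3000 m in FPKM, 46% after median-ratio scaling and 79.8% after scaling each library to its nuclear FPKM sum. The median difference of all genes moved from 0.01 in FPKM to −0.06 and −0.08 under those scalings. Median-ratio scaling kept 114 of the 194 higher and 91 of the 122 lower genes, and nuclear scaling kept 24 and 9. Only 23 higher and 9 lower genes separated the altitudes in FPKM and under both scalings.

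Across genes, the breeds did not move together. The altitude difference in Tibetan pigs and that in Yorkshire pigs had the same sign in 43.48% of genes, and their correlation across the 11709 genes was −0.0978 (Pearson) and −0.158 (Spearman). Without YL2 the values were 41.46%, −0.151 and −0.217. Genes are not independent replicates, so these are descriptions. Of the total sum of squares over genes, altitude took 15.3%, breed 21.3%, breed by altitude 18.6% and the spread between libraries of a group 44.8%, and 21.5% lay between YL1 and YL2.

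A looser criterion, added after the values were seen, asked that both 3000 m libraries lie on the same side of both 100 m libraries within each breed. It was met by 747 genes (6.38%), 433 higher (3.7%) and 314 lower (2.68%), and by 1670 (14.3%) without YL2. Within Tibetan pigs alone 2825 genes (24.1%) lay higher and 2883 (24.6%) lower, and within Yorkshire pigs alone 2607 (22.3%) lay higher and 1666 (14.2%) lower.

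**Figure D2:**
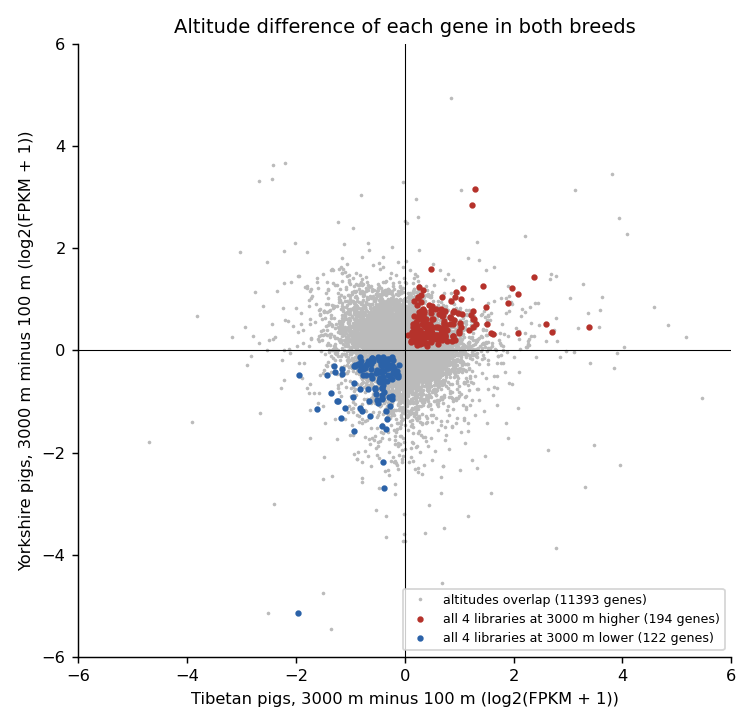
Altitude difference of each tested gene in Tibetan pigs (x axis) against that in Yorkshire pigs (y axis), each as 3000 m minus 100 m on the log2(FPKM + 1) scale, with the non-overlapping genes in colour. The cloud has no rising trend (Pearson −0.0978), and 16 genes lie beyond the axes, which end at 6.

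Among the separated genes higher at 3000 m, those with at least 10 reads in every highland library were ranked. After the unnamed gene ENSSSCG00000028235, the largest differences were those of CHI3L1, TNFRSF12A and S100A4. CHI3L1, a chitinase-like glycoprotein secreted by macrophages and injured tissue (Sscrofa10.2 chromosome 9, 125344018 to 125353610), was at 11.3 and 10.1 FPKM in TH, 0.762 and 0.728 in YH, 0.137 and 0.0987 in TL, and 0.117 and 0.431 in YL. Every highland library lay above every lowland library, but the Yorkshire highland level was under 1 FPKM. Its altitude difference was 1.93 ± 0.54 (SE) on the log2(FPKM + 1) scale, with 3.39 in Tibetan and 0.46 in Yorkshire pigs.

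TNFRSF12A, the receptor of the cytokine TWEAK, stood at 320 and 222 FPKM in TH and at 246 and 258 in YH, a narrow band of 262 ± 41.9 FPKM (SD, n = 4). The lowland libraries spread from 21.2 in TL1 and 40 in YL2 to 121 in TL2 and 214 in YL1, so that YL1 nearly reached the highland band. On the log2(FPKM + 1) scale the difference was 1.90 ± 0.65 (SE), and in Yorkshire pigs it was 1.43 with YL2 and 0.24 without it. Its locus (chromosome 3, 40522157 to 40533352) overlaps that of another gene, and their reads cannot be separated here.

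S100A4, a calcium-binding protein of fibroblasts and leukocytes (chromosome 4, 104908115 to 104915210, overlapping another gene), was at 38.1 and 18.8 FPKM in TH, 12.2 and 10.6 in YH, 6.02 and 6.16 in TL, and 2.92 and 6.24 in YL. After DDC it had the widest gap between the altitudes, 0.68 on the log2(FPKM + 1) scale. It differed by 1.60 ± 0.30 (SE), with 1.97 in Tibetan and 1.22 in Yorkshire pigs, and the Yorkshire value was 1.66 without YL2. The mean was 19.9 ± 12.6 against 5.33 ± 1.61 FPKM (SD, n = 4 each).

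CLCF1, a cytokine of the interleukin-6 family (chromosome 2, 3885576 to 3888922), was at 7.83 and 5.6 FPKM in TH, 1.92 and 2.68 in YH, 0.728 and 1.42 in TL, and 0.473 and 1.04 in YL. It differed by 1.41 ± 0.27 (SE), with 1.90 in Tibetan and 0.92 in Yorkshire pigs. ARID5A, an RNA-binding protein that stabilises interleukin-6 transcripts, was at 27.1 and 16.2 in TH, 10.4 and 14 in YH, 4.87 and 10.2 in TL, and 7.71 and 2.41 in YL. PTX3, a secreted pentraxin of innate immunity, lay between 0.655 FPKM in YH1 and 7.22 in YH2 at 3000 m and reached 0.652 in YL1 at 100 m, so its altitudes barely separated. Leaving out YH2 brought its difference of 1.15 on the log2(FPKM + 1) scale down to 0.67.

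GLRX, glutaredoxin, which removes glutathione from oxidised proteins, was at 140 and 92.7 FPKM in TH, 30.4 and 40.3 in YH, 20 and 13.9 in TL, and 24.3 and 29.8 in YL. Its difference was 2.70 in Tibetan and 0.37 in Yorkshire pigs, where YH1 lay just above YL2. NPM3, a nuclear chaperone of the nucleoplasmin family, was at 38.4 and 22.8 in TH, 7.33 and 15.9 in YH, 6.68 and 5.86 in TL, and 6.81 and 2.88 in YL. HOOK2, which links organelles to microtubules, averaged 16.6 ± 4.45 FPKM at 3000 m and 5.93 ± 4.09 at 100 m (SD, n = 4 each), and its log2 difference was 2.60 in Tibetan and 0.52 in Yorkshire pigs.

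Of the other higher genes named by the rule, C4ORF46 was at 9.23 and 7.98 FPKM in TH, 11 and 8.5 in YH, 2.02 and 2.8 in TL, and 6.31 and 3.82 in YL, a difference of 1.17 ± 0.22 (SE). ENSSSCG00000028235 had the largest difference of the 12, 2.04 ± 0.51, with 5.71 ± 3.31 FPKM at 3000 m, and at 100 m with 3.07 in TL1 but no more than 0.131 in the other 3 libraries. ENSSSCG00000014118 differed by 1.21, with 2.08 in Tibetan and 0.34 in Yorkshire pigs. The limma adjusted p of these 12 genes was from 0.773 to 0.789.

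**Figure D3:**
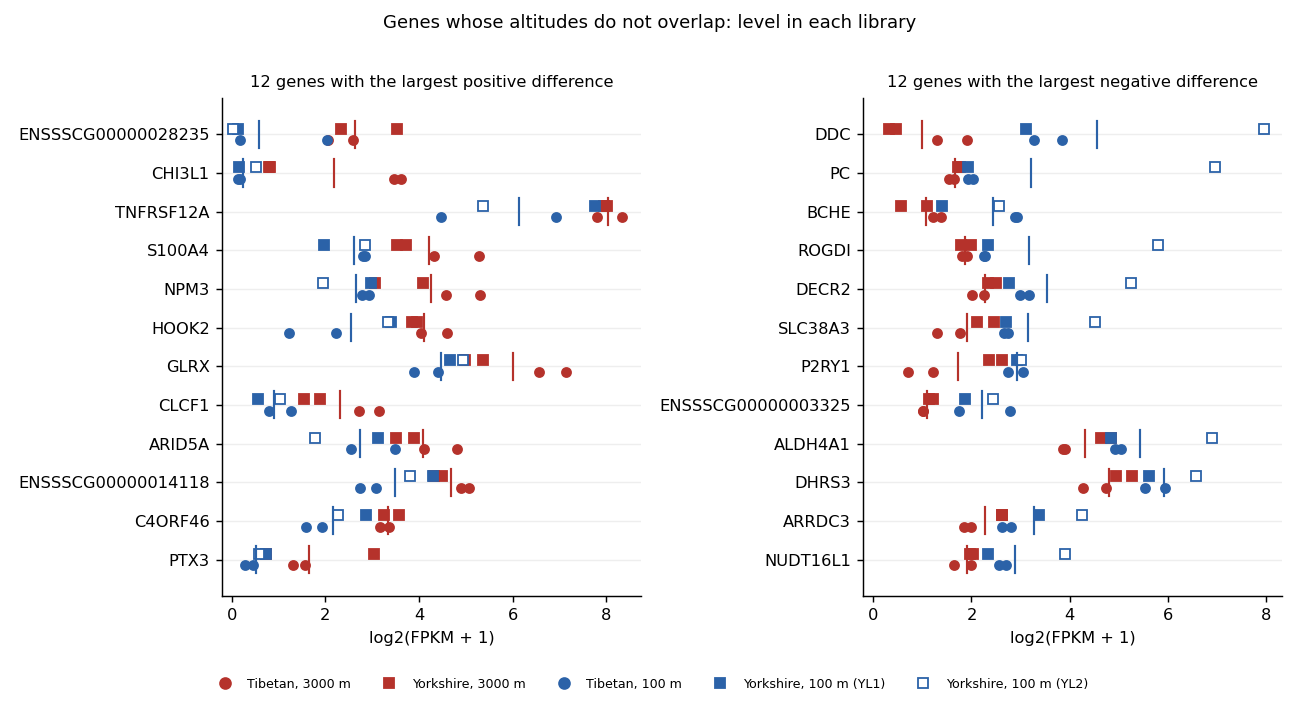
Level of the 12 non-overlapping genes with the largest difference upward and the 12 with the largest difference downward at 3000 m, among those with at least 10 reads in every library of the higher altitude. Values are log2(FPKM + 1) (x axis) in each library, red for 3000 m and blue for 100 m, circles for Tibetan and squares for Yorkshire pigs, an open square for YL2, and a vertical bar at the mean of each altitude. In PC, ROGDI and DECR2 the open square lies far to the right of the other 7 libraries.

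Of the 12 separated genes with the largest fall at 3000 m and at least 10 reads in every lowland library, DDC led by size. In several of them, PC, ROGDI and DECR2 among them, YL2 was far above every other library. DDC, the decarboxylase that makes dopamine and serotonin (chromosome 9, 150076905 to 150234100, overlapping another gene), was at 1.46 and 2.74 FPKM in TH, 0.24 and 0.384 in YH, 8.74 and 13.3 in TL, and 7.69 and 247 in YL. The highland and lowland libraries were separated widely even when YL2 was left out: the difference was −3.55 ± 1.05 (SE) with YL2 and −2.27 without it on the log2(FPKM + 1) scale. The ratio of highland to lowland means was 0.0174 with YL2 and 0.122 without it.

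BCHE, butyrylcholinesterase (chromosome 13, 113411283 to 113471750), was not led by YL2. It stood at 1.59 and 1.32 FPKM in TH, 1.15 and 0.485 in YH, 6.38 and 6.58 in TL, and 1.66 and 4.88 in YL, a difference of −1.38 ± 0.27 (SE), and the ratio of means was 0.233 with and without YL2. In Yorkshire pigs, however, its difference was −1.15 with YL2 and −0.57 without it. P2RY1, a receptor for ADP, was at 0.639 and 1.31 in TH, 5.19 and 4.14 in YH, and between 5.68 and 7.32 in the 4 lowland libraries, so that most of its difference of −1.21 ± 0.31 came from Tibetan pigs (−1.94 against −0.48).

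DHRS3, a reductase that returns retinal to retinol, was at 25.9 and 18.2 FPKM in TH, 37.5 and 29.7 in YH, 60.4 and 45.4 in TL, and 47.8 and 94.2 in YL. Its difference of −1.11 ± 0.25 (SE) was −0.94 without YL2. The unnamed gene ENSSSCG00000003325 was at 1.03 and 1.03 in TH and 1.18 and 1.31 in YH, against 5.85 and 2.37 in TL and 2.63 and 4.43 in YL, a difference of −1.11 ± 0.25.

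The remaining lower genes took much of their size from YL2. PC, pyruvate carboxylase, which refills the citric acid cycle, was at 1.92 and 2.13 FPKM in TH, 2.4 and 2.33 in YH, 2.83 and 3.06 in TL, 2.82 in YL1 and 123 in YL2. Its difference shrank from −1.54 to −0.30 without YL2, that of ROGDI from −1.29 to −0.42, and that of DECR2, a peroxisomal reductase of unsaturated fatty acids, from −1.26 to −0.70. ALDH4A1, a mitochondrial enzyme of proline breakdown, went from −1.11 to −0.70 and NUDT16L1 from −0.97 to −0.63. SLC38A3, a glutamine transporter, went from −1.25 to −0.88 and ARRDC3, an arrestin-like adaptor of receptors, from −0.99 to −0.77. The part of the kidney transcripts of YL2 in these values was not tested. The limma adjusted p of the 12 lower genes was from 0.773 to 0.905.

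The 32 genes that separated the altitudes in FPKM and under both scalings, a set seen only after the values were known, included 8 of the 24 genes above: DDC and ENSSSCG00000003325 on the lower side, and C4ORF46, ARID5A, CLCF1, NPM3, TNFRSF12A and ENSSSCG00000028235 on the higher side. HIPK2, a kinase of stress signalling, was at 15.4 and 12.4 FPKM in TH, 8.22 and 12.3 in YH, 4.86 and 5.64 in TL, and 5.89 and 5.12 in YL (1.01). These values are those of ENSSSCG00000025850, and the table's second gene with the symbol HIPK2, ENSSSCG00000026733, did not separate the altitudes (0.72). BMP1, the protease that trims procollagen, was at 41.8 and 32.6 in TH, 18.6 and 20.2 in YH, 12.6 and 12 in TL, and 17.3 and 10.2 in YL (1.01). SAMD4A, an RNA-binding repressor of translation, ran from 36.5 to 42.9 FPKM at 3000 m and from 9.18 to 31.7 at 100 m (1.05). GPD1L, a relative of glycerol phosphate dehydrogenase that modulates the cardiac sodium channel, ran from 101 to 146 against 53.1 to 94.7 (0.84).

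IFNAR2, CFP and IL-16 were also in the set on the higher side, and SLA-DQB2, DEDD2 and HERC5, an interferon-stimulated gene, on the lower side. IFNAR2, a subunit of the type I interferon receptor, was at 7.02 and 8.39 FPKM in TH, 5.12 and 6.07 in YH, 3.81 and 4.85 in TL, and 4.57 and 1.97 in YL (0.70). CFP, properdin, which stabilises the alternative complement convertase, ran from 2.37 to 3.17 against 0.858 to 1.54 (0.67), and IL-16, a chemoattractant of CD4+ cells, from 2.27 to 3.34 against 0.998 to 2.1 (0.61). SLA-DQB2, a class II histocompatibility gene, was listed at 0 in 3 highland libraries and at 0.722 in YH2. The lowland libraries ran from 1.2 to 2.01. Like HERC5, SLA-DQB2 passed the filter on low values through the lowland libraries alone. A value of 0 stays at 0 under any scaling, so for SLA-DQB2 the scalings tested only YH2 against the lowland libraries. DEDD2, a nuclear death effector protein, ran from 2.6 to 3.82 against 4.81 to 7.15 (−0.69).

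Of 44 gene lists, 43 had a median that changed sign or moved by over 1.5 times when a library was left out, 35 of them without YL2, and the medians below are descriptions of these pools. Of the list members described below as separated, HERC5 alone was also separated under both other scalings. Oxygen sensing genes differed in sign between the breeds, with a median of −0.22 in Tibetan and 0.18 in Yorkshire pigs, and 0.10 in the latter without YL2. Of 10 oxygen sensor and HIF subunit genes, 5 were higher and 5 lower at 3000 m, none separated the altitudes against 2.7% of all genes, and the median difference was −0.05 against 0.01 for all genes, turning to 0.04 without TH1 and −0.18 without YH1. Under each of the 2 other scalings 1 of the 10 was higher, with medians of −0.14 and −0.15. EPAS1, an oxygen-regulated HIF alpha subunit, was at 37.7 and 57.6 FPKM in TH, 59.9 and 50.7 in YH, 60.3 and 64.6 in TL, and 55.2 and 44.6 in YL (−0.13, and 0.15 in Yorkshire pigs alone). EGLN3, a hydroxylase that is itself induced by HIF, was at 35.2 and 29.2 in TH, 81.2 and 56.5 in YH, 38 and 43.9 in TL, and 79.7 and 34.5 in YL. Its difference was 0.01 in FPKM and −0.07 and −0.08 under the 2 other scalings.

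Of 33 genes known to be induced by hypoxia, 16 were higher and 17 lower, none separated the altitudes, and the median was −0.01. Under each of the 2 other scalings 9 of the 33 were higher, with medians of −0.08 and −0.09 against −0.06 and −0.08 for all genes. BNIP3, a mitophagy receptor and a HIF target, was the only member on the same side in both breeds, 1 of 33 against 2.68% of all genes lower within each breed, and stood at 69.6 and 43.3 FPKM in TH, 84.5 and 73.4 in YH, 77.9 and 84 in TL, and 111 and 103 in YL (−0.49). PGK1, a glycolytic enzyme and HIF target, differed by −0.16, or by −0.08 without TH2 and −0.30 without TH1. ANGPTL4, a HIF- and PPAR-driven inhibitor of lipoprotein lipase, ran from 9.78 to 21.5 at 3000 m against 3.16, 3.42 and 7.43 in TL1, TL2 and YL1, but YL2, at 15.3, kept its altitudes from separating.

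Among 19 vessel growth factors and receptors the median was 0.02, with −0.25 in Tibetan and 0.41 in Yorkshire pigs, where 13 of the 19 lay higher within the breed against 22.3% of all genes. The median was 0.20 without TH1 and −0.07 without YL2. The 17 endothelial markers had medians of −0.39 in Tibetan and 0.49 in Yorkshire pigs, with 13 of the 17 higher within the latter, and their part in this result was not tested. PGF, placental growth factor, was the only member of the 19 whose altitudes did not overlap, against 1.66% of all genes higher. PGF stood at 1.47 and 3.56 FPKM in TH, 1.79 and 2.92 in YH, 0.992 and 1.36 in TL, and 1.33 and 0.756 in YL, a difference of 0.67. VEGFA differed by 0.03. The 13 genes of vascular tone had a median of −0.01, with −0.17 in Tibetan and 0.22 in Yorkshire pigs (0.44 without YL2), and it was 0.15 without TH1.

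The globins were ordered by breed as well as by altitude. HBB, beta globin, was at 1708 and 876 FPKM in TH, 599 and 534 in YH, 649 and 642 in TL, and 374 and 290 in YL, higher at 3000 m within each breed, while the Yorkshire highland libraries lay below the Tibetan lowland libraries. Its difference was 0.85 ± 0.25 (SE), with 0.92 in Tibetan and 0.78 in Yorkshire pigs, and 0.59 in the latter without YL2. HBA, alpha globin, was at 745 FPKM in TH2 and 754 in TL2, so that it overlapped even within Tibetan pigs (0.79). Of the 13 globin and erythroid genes tested, 8 were higher and 5 lower with none separated, and the list median of 0.08 was −0.00094 under median-ratio scaling, −0.013 under nuclear scaling, −0.0025 without TH1 and 0.21 without YL2. It was 0.28 in Tibetan and −0.12 in Yorkshire pigs, and 0.18 in the latter without YL2.

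Cardiac stress genes were mostly higher at 3000 m on average, and none of the 18 separated the altitudes in FPKM with all 8 libraries, against 1.66% of all genes higher. None did under median-ratio scaling, but under nuclear scaling 6 of the 18 separated upward, where 79 of 11709 genes did. Without YL1 6 did, where 477 of 11709 genes did, and without YH1 5 did, where 653 genes did. Of the 18, 17 were higher, 7 of them at an unadjusted limma p under 0.05 against 3.95% of all genes, and their median was 0.75 against 0.01 for all genes. Under the 2 other scalings it was 0.67 and 0.66, and with a library left out it ran from 0.48 without YL2 to 1.12 without YL1. In Yorkshire pigs it was 0.66 with YL2 and −0.03 without it. NPPA and NPPB, which encode the natriuretic peptides, were carried by the Tibetan highland pools. NPPA was at 2263 and 2146 FPKM there and between 23.1 and 108 in the other 6 libraries, and NPPB was at 4963 and 3264 there, 16.1 and 180 in YH, and between 7.75 and 278 in the lowland libraries (3.14, or 1.74 without TL1). The 13 atrial markers found in the table, NPPA among them, summed to 6851 and 5631 FPKM in these pools and to 502.4 to 2898 elsewhere. Of the 12 that were tested 3 were highest in TH1 and 3 in TH2, and their part in this result was not tested.

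Among the structural stress genes, CRYAB, a small heat shock protein that protects desmin, stood at 6494 and 4239 FPKM in TH, 1692 and 3200 in YH, 1041 and 1250 in TL, and 2636 and 717 in YL, so that YL1 lay inside the highland range. DES, desmin itself, was at 9125 and 5761 in TH, 1697 and 2624 in YH, 1295 and 1728 in TL, and 3510 and 920 in YL. In Tibetan pigs both highland pools were above both lowland pools for each gene, and in Yorkshire pigs YL1 lay above both highland pools for DES and above YH1 for CRYAB.

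Z-disc and cytoskeletal scaffold genes had 22 of 27 members higher, 6 at an unadjusted p under 0.05 in limma against 3.95% of all genes, and a median of 0.45, or 0.24 without YL2 and 0.25 without YH2. The median was 0.17 in Tibetan and 0.73 in Yorkshire pigs, and 0.30 in the latter without YL2. PDLIM3, a PDZ and LIM scaffold that binds alpha-actinin, was at 236 and 351 FPKM in TH, 76.6 and 210 in YH, 38.7 and 97.1 in TL, and 30.7 and 21.9 in YL. It was higher at 3000 m within each breed, and a single pair, YH1 below TL2, kept the altitudes from separating. Its difference of 2.23 ± 0.40 (SE) had a limma adjusted p of 0.773. VCL and FLNC, which anchor actin at the membrane and the Z-disc, were the other members higher within each breed (0.45 and 1.57), which makes 3 of 27 against 3.7% of all genes.

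Transcripts of rapid signalling were mixed. Of 24 immediate early genes 16 were higher and 8 lower, with a median of 0.26 and none separated. The median was 0.13 without YH2 and 0.41 without YH1, and 2 members separated downward without YL2, against 2.6% of all genes. CYR61, DUSP5 and EGR2 lay higher within each breed, 3 of 24 against 3.7% of all genes. NOR-1 (NR4A3), an orphan nuclear receptor induced within minutes by catecholamines and stretch, went the other way: 1.15 and 6.39 FPKM in TH, 1.56 and 1.97 in YH, 44.6 and 77.1 in TL, and 12.2 and 3.04 in YL (−2.65 ± 0.65, SE). Only YL2 lay within the highland range. C-JUN lay between 85.6 and 90.6 in all highland libraries and at 122 to 201 in TL1, TL2 and YL1, with YL2 at 41 (−0.28, or −0.71 without YL2 and −0.03 without TL1).

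Clock genes were lower in 12 of 16 cases, with a median of −0.19 that stayed negative under the 2 scalings, in each breed and with each library left out (−0.29 without TH2 to −0.12 without YH1). In Yorkshire pigs it was −0.35 with YL2 and −0.07 without it, and YL2 was the highest library for 7 of the 16. PER2 was the member lower within each breed (−0.47), 1 of 16 against 2.68% of all genes. PER1 was lower in every highland library than in TL1, TL2 and YL1 (−0.36, or −0.16 without YL1 and −0.22 without YH1). The hour of slaughter was not given in the sources used here. Of 27 heat shock chaperones 20 were higher (median 0.18). The median was 0.33 without YH1, 0.29 without YL1, and 0.10 and 0.09 under the 2 other scalings, and in Yorkshire pigs it was 0.15 with YL2 and −0.09 without it. HSPA2, a testis-rich HSP70 also made in muscle, was the separated member, 1 of 27 against 1.66% of all genes higher. It stood at 5.62 to 7.73 FPKM at 3000 m against 2.46 to 4.79 at 100 m (0.78).

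Among glucocorticoid receptors and targets, 18 genes had a median of 0.08, which was −0.0044 under nuclear scaling, −0.02 without YL2, −0.03 without TH2 and 0.24 without YL1. HSD11B1, the enzyme that regenerates active cortisol, separated the altitudes narrowly, 1 of 18 against 1.66% of all genes higher. It was at 8.36 and 9.67 FPKM in TH, 9.04 and 10.4 in YH, 7.92 and 8.19 in TL, and 7.59 and 5.46 in YL (0.33, or 0.21 without YL2). KLF15, a glucocorticoid-induced regulator of cardiac metabolism, was at 4.63 and 8.81 in TH and 6.1 and 12.9 in YH against 11.8 and 15.2 in TL and 23.1 and 15.8 in YL. It was lower within each breed (−0.99), with YH2 above TL1.

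In energy metabolism the breeds' medians often had opposite signs with all 8 libraries. Without YL2 the Yorkshire medians of the citric acid cycle and oxidative phosphorylation lists were negative, and that of glycolysis was near 0. HADH, which catalyses the third step of mitochondrial fatty acid oxidation, was lower at 3000 m, at 168 and 125 FPKM in TH, 215 and 227 in YH, 248 and 266 in TL, and 238 and 245 in YL (−0.48). It was the only separated member of 31 fatty acid genes, against 1.04% of all genes lower, and their median of 0.06 became −0.03 and −0.04 under the 2 other scalings and −0.0041 without YH1. PLIN2, which coats lipid droplets, pointed upward within each breed: 8.45 and 10.1 in TH, 24.6 and 23.9 in YH, 1.4 and 2.33 in TL, and 5.95 and 21.2 in YL (1.44), and without YL2 its altitudes did not overlap.

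Of 26 genes of the citric acid cycle and ketone use 19 were lower (median −0.09), and PC was the only separated member, against 1.04% of all genes, but the median was −0.39 in Tibetan and 0.25 in Yorkshire pigs (−0.08 without YL2). Without YL2 the median of both breeds was −0.26, and without TH2 −0.01. Within Tibetan pigs 16 of the 26 lay lower, against 24.6% of all genes. The 37 glycolytic genes had a median of −0.08, with −0.34 in Tibetan and 0.26 in Yorkshire pigs, and 18 of them lay lower within Tibetan pigs, against 24.6% of all genes. Without YL2 the Yorkshire median was 0.00034 and that of both breeds −0.23, with 10 of the 37 higher. The 72 nuclear oxidative phosphorylation genes had a median of 0.08, which was −0.14 without YL2, −0.09 without TH1 and 0.24 without YL1. Their Yorkshire median went from 0.15 to −0.33 without YL2. With YL2 left out, 4 of these 72, 4 of the 37 glycolytic and 4 of the 26 citric acid cycle genes separated downward. The share of all genes was 2.6%, and 1 of the 26 separated upward, against 3.15%. The 13 mitochondrially encoded genes had a median of 0.24, which was −0.01 without YL2, 0.02 without TH1 and 0.58 without YL1. SIRT1, a deacetylase that activates PGC-1, separated downward, the only 1 of 16 PPAR, PGC-1 and ERR regulators to do so, against 1.04% of all genes. It was at 1.06 and 1.89 FPKM in TH, 1.8 and 1.97 in YH, 2.84 and 2.18 in TL, and 2.29 and 3.25 in YL (−0.45). Of 33 antioxidant genes, KEAP1, the repressor of NRF2, was separated upward (0.22) and TXNRD2, the mitochondrial thioredoxin reductase, downward (−0.26), against 1.66% and 1.04% of all genes, and the list median was −0.14 with YL2 and 0.11 without it (0.18 in Tibetan and −0.43 in Yorkshire pigs with all 8 libraries).

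**Figure D4:**
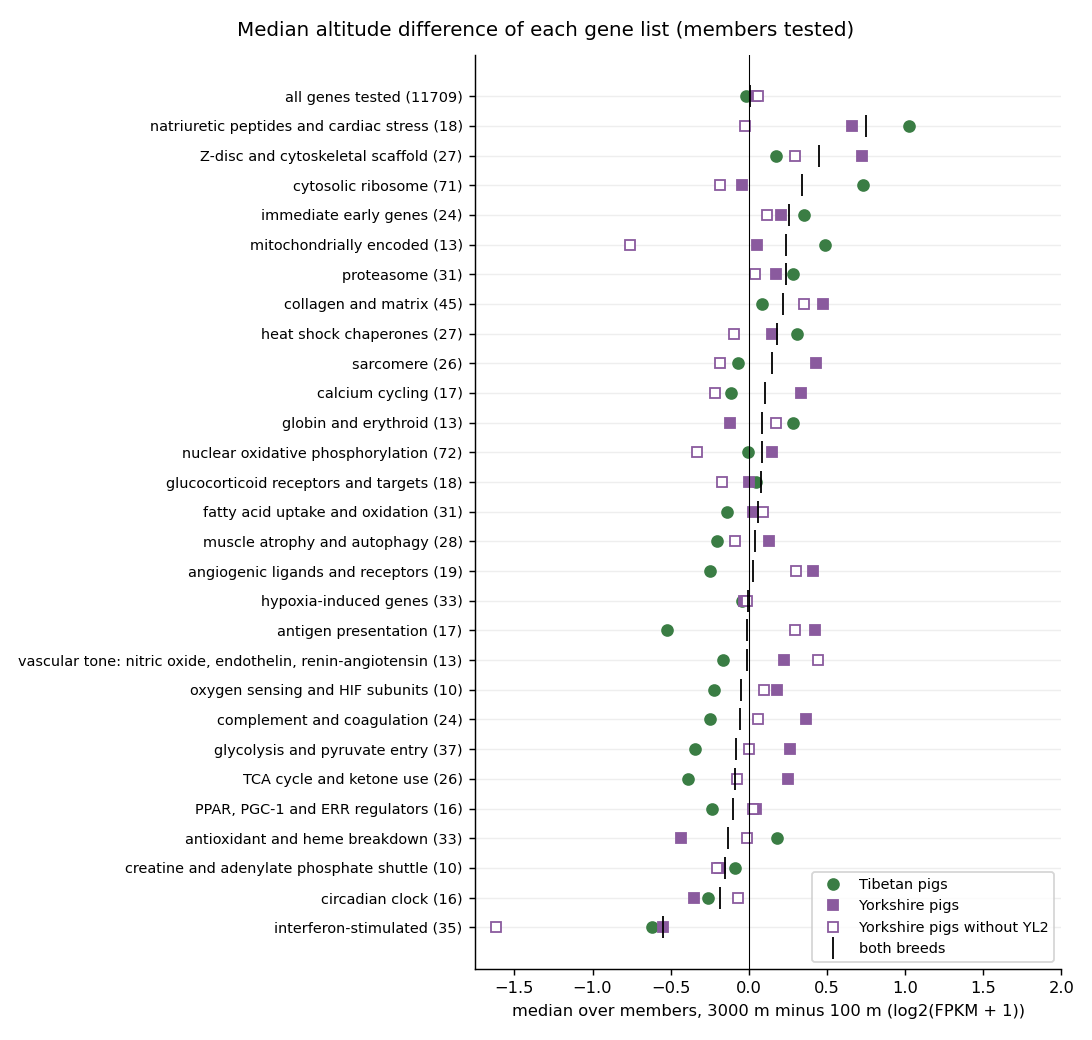
Median altitude difference of each pathway list with at least 10 members tested, cell type marker lists left out (x axis, 3000 m minus 100 m on the log2(FPKM + 1) scale), with the number of members tested in brackets, for both breeds (vertical bars), Tibetan pigs (circles), Yorkshire pigs (filled squares) and Yorkshire pigs without YL2 (open squares). For cytosolic ribosome genes the circle lies at 0.73 and the filled square at −0.04, while for interferon-stimulated genes they lie at −0.62 and −0.55 and the open square at −1.62.

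Protein synthesis and breakdown differed in how far the breeds shared them. All 71 cytosolic ribosome genes were higher at 3000 m in the fit of both breeds, with a median of 0.34, but none separated the altitudes. The Tibetan median was 0.73 and the Yorkshire median −0.04, or −0.18 without YL2. In Tibetan pigs 66 of the 71 lay higher in both highland libraries than in both lowland ones, against 24.1% of all genes, and in Yorkshire pigs none did, against 22.3% of all genes, and 8 lay lower, which is fewer than the 14.2% of all genes. Without TH1 the median of the list was 0.10. RPS24, which with RPLP1 had the highest mean level of the list, was at 3711 FPKM in TH1 and between 1466 and 2231 in the other libraries (0.22, or 0.03 without TH1).

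The proteasome list was higher in both breeds with all 8 libraries. All 31 subunits and activators were higher at 3000 m (median 0.24, with 0.28 in Tibetan and 0.17 in Yorkshire pigs), and in each breed 26 of the 31 were higher. Without YL2 the median was 0.16, without TH1 it was 0.15, and the Yorkshire median was 0.04 against 0.06 for all genes. TH1 was the highest library for 25 of the 31 (80.6%, against 25.4% of all genes), and YL2 the lowest for 22. The altitudes did not overlap for 4 of the 31, against 1.66% of all genes: PSMA1 and PSMA2, of the catalytic core ring, and PSMD7 and PSMD12, of the regulatory lid. PSMA2 was at 76.6 and 66 FPKM in TH, 55.9 and 60.1 in YH, 52.1 and 49 in TL, and 54.6 and 47.6 in YL (0.33). PSMA1 ran from 58.7 to 67.1 FPKM against 46.8 to 56.3 (0.31), and PSMD12 from 15.9 to 19.3 against 13.3 to 14.6 (0.27). The list remained higher under both scalings, with medians of 0.15 and 0.14, but 3 members separated the altitudes under median-ratio scaling and none under nuclear scaling.

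PSMC1, PSMA5 and PSME3 joined the 4 when the criterion was applied within each breed, 7 of 31 against 3.7% of all genes. Among 28 genes of muscle atrophy and autophagy, 2 separated the altitudes downward, against 1.04% of all genes. FOXO1, the transcription factor that drives atrophy ligases, was at 5.72 and 6.32 FPKM in TH, 6.72 and 6.59 in YH, 7.03 and 10.3 in TL, and 7.43 and 8.36 in YL (−0.33, or −0.21 without TL2). TP53INP1, an autophagy adaptor, was at 5.18 to 6.38 at 3000 m, 6.97 and 7.5 in TL, 9.64 in YL1 and 26.9 in YL2 (−0.84, or −0.45 without YL2). The list median was 0.04 and became −0.05 and −0.06 under the 2 other scalings and −0.18 without YL2.

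**Figure D5:**
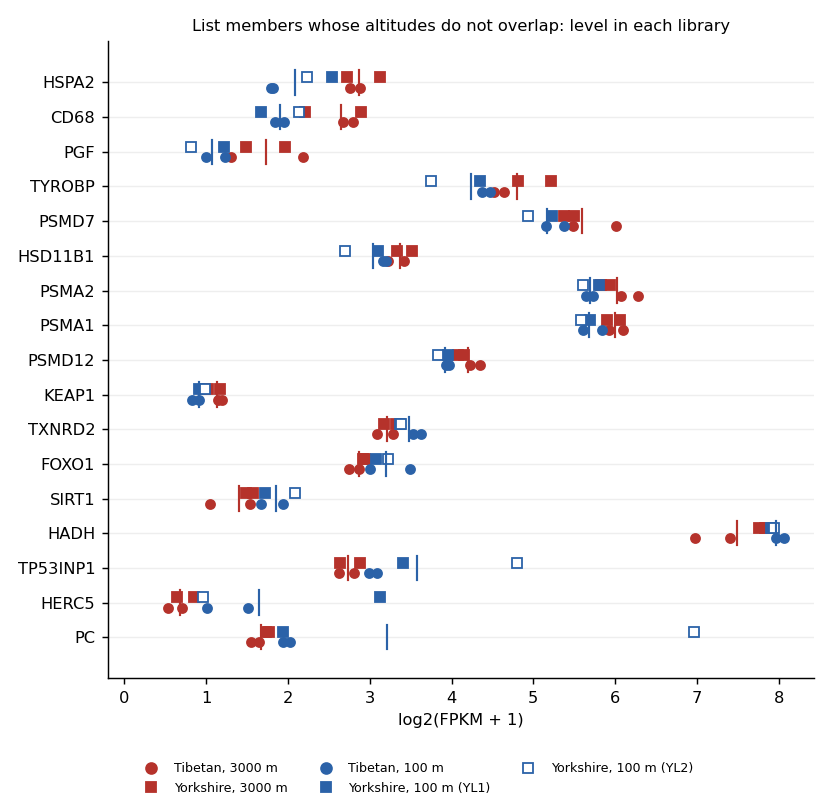
Level of the list members whose altitudes did not overlap, as log2(FPKM + 1) (x axis) in each library, coloured and shaped as in the plot of the 24 leading genes, with a vertical bar at the mean of each altitude. Most pairs of altitudes are separated by a narrow gap, and YL2 (open square) lies far from the other lowland libraries in PC and TP53INP1.

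Interferon-stimulated genes had the lowest median of the pathway lists in the plot of list medians. At 3000 m 32 of 35 were lower and 3 higher, with a median of −0.55, and the medians were −0.62 in Tibetan and −0.55 in Yorkshire pigs. Without YL2 the median was −0.98, and in Yorkshire pigs −1.62. In Tibetan pigs 21 of the 35 lay lower in both highland libraries than in both lowland ones, against 24.6% of all genes. In Yorkshire pigs 3 of the 35 lay lower, against 14.2%, and 3 lay higher, against 22.3%. YL1 was the highest of the 8 libraries for 31 of the 35 genes (88.6%, against 7.63% of all genes), and without YL1 the median of the list was −0.12. Their summed level was 1348 FPKM in YL1 and between 174.9 and 473.6 in the other 7 libraries.

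HERC5, the ligase that attaches ISG15, was the only separated member with all 8 libraries, 1 of 35 against 1.04% of all genes lower. It was at 0.452 and 0.626 FPKM in TH, 0.807 and 0.57 in YH, 1.01 and 1.85 in TL, and 7.71 and 0.957 in YL (−0.97, or −0.47 without YL1 and −1.33 without YL2). Without YL2, IFI44, USP18, DDX58 and IFIH1 were separated as well, 5 of 35 against 2.6% of all genes, and without YL1 1 of the 35 was, against 418 of 11709 genes lower in that setting. MX1, an antiviral GTPase, was lower within each breed, at 1.12 and 0.818 in TH, 4.37 and 3.79 in YH, 3.29 and 9.14 in TL, and 50.7 and 4.41 in YL (−1.74, or −1.09 without YL1 and −2.39 without YL2). ISG12(A), an interferon-induced protein of mitochondria that was not on the list and was chosen after its values were seen, was at 38.1 and 45.7 in TH, 113 and 67.6 in YH, 86.5 and 132 in TL, and 491 and 474 in YL. Both Yorkshire lowland pools were high in ISG12(A), and its difference of −1.89 ± 0.30 (SE) was −1.33 in Tibetan and −2.45 in Yorkshire pigs.

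Of 15 macrophage and myeloid markers 10 were higher and 5 lower at 3000 m (median 0.31), and 2 separated the altitudes upward, against 1.66% of all genes, but none under median-ratio or nuclear scaling. CD68, a lysosomal protein of macrophages, was at 5.39 and 5.95 FPKM in TH, 3.63 and 6.43 in YH, 2.89 and 2.6 in TL, and 2.18 and 3.41 in YL (0.74). TYROBP, the adaptor of myeloid receptors, was at 21.9 and 24 in TH, 27.1 and 36.1 in YH, 21.1 and 19.7 in TL, and 19.3 and 12.5 in YL (0.56, or 0.37 without YL2). C1QA, which resident macrophages also make, was at 4.49 and 13.1 in TH, 33.9 and 34.1 in YH, 44.1 and 45.5 in TL, and 34.3 and 22.9 in YL. It was lower at 3000 m in Tibetan pigs and overlapped in Yorkshire pigs.

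Of 16 smooth muscle markers 11 were higher and none separated the altitudes, with a median of 0.30, or 0.10 without YL2, where 8 were higher. In Tibetan pigs 7 of the 16 were higher and the median was −0.13, and in Yorkshire pigs all 16 were and it was 0.64, or 0.38 without YL2, the lowest library for 10 of the 16. Of the 16, 3 lay higher within each breed, against 3.7% of all genes: TAGLN (0.69), MCAM and CSPG4. In 5 further lists none separated the altitudes, and the breeds' medians differed in sign with all 8 libraries in 4 of them: 26 sarcomere genes (−0.07 in Tibetan and 0.43 in Yorkshire pigs), 17 calcium cycling genes (−0.11 and 0.34), 17 antigen presentation genes (−0.52 and 0.42) and 24 complement and coagulation genes (−0.25 and 0.36). Without YL2 the Yorkshire medians of the sarcomere and calcium lists were −0.18 and −0.22, on the Tibetan side of 0, and those of the antigen presentation and complement lists 0.30 and 0.06. In that setting 1 sarcomere, 2 calcium cycling and 1 complement and coagulation gene separated downward, against 2.6% of all genes. The fifth list, 10 genes of the creatine and adenylate phosphate shuttle, had a median of −0.15, or −0.07 without YL2, where 2 members separated downward against 2.6% of all genes, and −0.28 without YL1. The 45 collagen and matrix genes had a median of 0.22, which was −0.01 without TH2 and 0.52 without TH1. Of the 21 candidate genes that the study chose on these same samples, and which are therefore not independent evidence of direction, 14 were higher and 7 lower with none separated. HBB and PDLIM3 were higher within each breed, 2 of 21 against 3.7% of all genes. DPP4, a peptidase of incretins, was lower within each breed, 1 of 21 against 2.68% of all genes. DPP4 was at 11.3 and 9.01 FPKM in TH, 41.9 and 48.9 in YH, 16.5 and 20.3 in TL, and 52.3 and 68.4 in YL (−0.60), with every Yorkshire library above every Tibetan library.

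Whether the altitude difference itself differed between breeds was tested as an interaction. In limma 5 genes (0.0427%) passed an adjusted p of 0.05, and 9 (0.0769%) without YL2. Of these, 4 were small RNAs or unnamed genes with 1 or 2 reads in the libraries of a single group, and the other was CRTAC1, a secreted cartilage matrix protein, at 7.02 and 6.74 FPKM in TH with 208 and 209 reads and with no more than 6 reads in any other library. It passed the filter on low values through TH alone, so the test below is not independent of that choice. Its difference was 2.98 ± 0.27 (SE) larger in Tibetan pigs (limma adjusted p = 0.0276, and 0.0537 without YL2). These values are those of ENSSSCG00000026089, and for the second gene with the symbol CRTAC1, ENSSSCG00000010530, the difference was 2.54 larger in Tibetan pigs (limma adjusted p = 0.221). Reads of such a pair may be split between them. CHI3L1 did not pass, with a limma adjusted p of 0.05002 for the interaction.

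Count tests on reads recovered from the deposited values were run beside limma over 11454 genes. In edgeR's quasi-likelihood test 0 genes (0.0%) passed an adjusted p of 0.05, with 684 at an unadjusted p under 0.05, and without YL2 2 genes (0.0175%) did. The 2 were ENSSSCG00000027499, at −2.81 on the log2 scale (edgeR adjusted p = 0.00778), and TMP-CH242-74M17.4, at −3.18 (edgeR adjusted p = 0.0138), and both were lower at 3000 m. TMP-CH242-74M17.4 was at 0.111 and 0.125 FPKM in TH, 1.82 and 1.4 in YH, 1.14 and 0.741 in TL, and 21.7 and 9.52 in YL.

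DESeq2 called 53 genes (0.463%), 35 higher and 18 lower, and 109 (0.952%) without YL2, 49 higher and 60 lower. Of the 53, 13 higher and 10 lower genes also separated the altitudes in FPKM. Those higher included CLCF1 (2.13 on the log2 scale, DESeq2 adjusted p = 0.000248), CHI3L1 (3.94, 0.000999), PTX3 (2.64, 0.01) and HIPK2 (1.13, 0.004), and those lower BCHE (−2.14, 0.00214) and DDC (−5.54, 0.0191). Both criteria use the same libraries, so meeting both is no independent support. CHI3L1 and PTX3 also passed the filter on low values only through the altitude at which they were high. PDLIM3 (2.21, DESeq2 adjusted p = 6.82e-05) and CDKN3, a phosphatase of the cell cycle (2.02, 0.000425), were called without separating the altitudes, CDKN3 in 1 of its 2 annotated genes. Of the 35 interferon-stimulated genes DESeq2 called 1 lower with YL2 and 9 without it, where the Yorkshire lowland group is YL1 alone, the library in which most of them are highest. EdgeR called 0 of the 35 with or without YL2.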

How the data were processed

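RNA-seq was made from pooled heart RNA of 4 pigs per library in 8 libraries (paired-end reads, stranded counting not stated, so overlapping and antisense genes cannot be separated). The authors aligned reads to Sscrofa10.2 (submitters' notes name TopHat2 2.0.9, Bowtie 0.12.5 and DESeq 1.10.1) and deposited FPKM per gene, computed with Cufflinks. The deposited table also holds a column named count for each library, whose values are not whole: a signal deposited by the authors with a tool not given in the sources used here, and read here as reads on each gene times a factor of the library. In steps of the lowest values 99.73% to 99.89% were whole within 0.05. This was checked by code for YH2 and rests on the same calculation made here for the other 7 libraries, so count tests served as alternatives only. The authors' group means and ratios of groups were not used.

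Genes with at least 1 FPKM in 2 of the 7 libraries other than YL2 were kept, log2(FPKM + 1) was fitted in limma 3.58.1 (R 4.3.3) with altitude and breed as terms (trend and Benjamini-Hochberg adjustment over 11709 genes), and a 4-group fit gave the breed contrasts and their interaction. The added 1 shrinks the differences of low genes. Symbols came from the table for 14231 genes, from a name table for 1046 and from the identifier for 3698. Altitude in metres and pooling come from the study's methods. Alternatives were edgeR 4.0.16, DESeq2 1.42.0, each library left out, other pseudocounts, filters and scalings, and a replicate block. The fits across genes were tested on simulated data. Median-ratio scaling divided each library by the median ratio of its genes to their geometric mean, and nuclear scaling by its FPKM sum over nuclear genes. The members of the comparison, the gene lists and the tests were chosen with earlier results of these data known. The criterion within breeds was added after seeing the values.

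Named genes were the 12 with the largest difference in each direction among non-overlapping genes with at least 10 reads in every library of the higher altitude, up to 10 called genes each way, of each list up to 5 non-overlapping members by mean FPKM (or the 2 highest, where a described list had none), and markers of other cells. Genes named beyond this rule were chosen after their values were seen. Promoter motifs were not analysed here, since no sequence was at hand. Versions of the other tools were Python 3.11.15, pandas 2.3.3, numpy 2.4.6 and matplotlib 3.10.9. Depth was 15687144 to 26721951 reads on genes per library.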

Additional observations from a re-analysis of the deposited data

Results flagged for a closer look

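For each of 69 named genes the 4 libraries of each altitude were examined for a value far from the other 3, which gives 138 groups. In 13 of them the most distant library was separated from its nearest neighbour by most of the group's range (above Dixon's 95% critical value for 4 values). Chance would give about 1 in 20 groups for genes not chosen by these values. Many of the 69 were chosen by them, so that share is no reference for the 13. YL2 was the distant library in 8 of the 13, and TH1 in 2.

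At 100 m YL2 stood far above the others for DDC (247 FPKM), PC (123), ALDH4A1 (119), ROGDI (55.0), DECR2 (36.9) and SLC38A3 (21.8), and for CHI3L1 at 0.431 FPKM. It stood far below them for RPS24, at 1466 FPKM. TL1 was far above the other lowland libraries for ENSSSCG00000028235 (3.07 FPKM), and YL1 far below them for S100A4 (2.92 FPKM). At 3000 m TH1 was far above for PGK1 (265 FPKM) and far below for SIRT1 (1.06 FPKM), and TH2 far below for NUDT16L1 (2.11 FPKM).

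The altitude difference differed between the breeds in 5 genes by limma's interaction test. It was larger in Tibetan pigs by 14.69 on the log2 scale for snosnR61 (adjusted p = 2.43e-05), by 11.9 for ENSSSCG00000018734 (2.43e-05), by 10.62 for snoU13 (1.51e-05) and by 2.98 for CRTAC1 (0.0276), and it was −11.08 for ENSSSCG00000030555 (1.51e-05). All but CRTAC1 rest on 1 or 2 reads per library in a single Tibetan group.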

How the results depend on the processing

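For separated genes the sign could not change with a library left out or in either breed alone, since separation fixes it. Of the 69 named genes, many of them separated, 63 kept the sign of their difference under every alternative run. None of the 24 leading separated genes changed sign, which for them is no measure of stability. The exceptions among the 69 were EPAS1 (0.15 in Yorkshire pigs alone, −0.25 to 0.044 with a library left out), C-JUN (0.34), NR1D1 (−0.16) and NPPB (−1.28) in Yorkshire pigs alone, EGLN3 (−0.074 median-ratio, −0.083 nuclear, −0.34 Tibetan pigs alone, −0.063 edgeR, −0.072 DESeq2, −0.31 for each without YL2, −0.30 to 0.18 with a library left out) and GAPDH (−0.045 median-ratio, −0.054 nuclear, −0.19 Tibetan pigs alone, −0.034 edgeR, −0.25 without YL2, −0.043 DESeq2, −0.26 without YL2, −0.24 to 0.27 with a library left out). With a library left out, 25 of the 69 changed sign or moved by over 1.5 times, 15 of them without YL2 and 17 without another library. The cause was not tested.

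The count of called genes was 0 in each direction in the limma model and moved as follows. Genes called higher numbered 0 to 1 and lower 0 to 3 with a library left out (1 and 3 without YL1), 5 and 1 with a term per group, 11 and 2 in Tibetan pigs alone, 35 and 18 with DESeq2, 49 and 60 with DESeq2 without YL2, and 2 lower with edgeR without YL2. Separated genes numbered 249 to 653 higher and 170 to 418 lower with a library left out, 79 and 30 at a mean of at least 10 FPKM, 79 and 20 under nuclear scaling, 2825 and 2883 in Tibetan and 2607 and 1666 in Yorkshire pigs alone, 433 and 314 within each breed, 297 and 347 in edgeR-normalised reads without YL2, 358 lower in DESeq2-normalised reads without YL2, and 216 lower with no filter. Interaction calls were 9 without YL2. Fewer libraries make separation easier. The replicate block gave 0 calls, 656 genes at an unadjusted p under 0.05 and a smallest limma adjusted p of 0.881, and libraries sharing a number deviated together at −0.101 to 0.116, so the numbers do not pair them. Pools, 2 libraries per group and a mitochondrial share that varies between libraries limit what these values resolve. The lowest genes rest on few reads.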
